A study of Homo sapiens with 6 samples.

Results

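A set of 135 protein-coding genes was lower under both siRNAs against the circular RNA circ235 than under the control siRNA in T24 cells. T24 is an established human bladder cancer cell line. The cells were transfected with a control siRNA (NC), with si-circ235-1 or with si-circ235-2, and 2 biological replicates of each condition were sequenced. Both siRNAs are directed at the back-splice junction of circ235, a circular RNA formed from exons of CCNY, and no transgene or selection is named for these cells. Polyadenylated mRNA was sequenced without strand information, and circ235, which has no poly(A) tail, was not measured in these libraries.

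The members were chosen by their measured values, so their lower levels against NC are a description and were not tested. Counts were expressed as CPM, counts scaled to a common library size, with TMM factors that correct this size for composition. A protein-coding gene was eligible at a mean of at least 5 CPM over the 6 libraries. It became a member if the means of si-circ235-1 and of si-circ235-2 were each at most the NC mean divided by 1.7 (58.8% of NC) and if all 4 siRNA libraries lay below both NC libraries. Of 58288 gene identifiers in the table, 9960 were eligible, and the 135 members are 1.36% of these. The si-circ235-1 mean alone reached the limit in 759 eligible genes and the si-circ235-2 mean alone in 1611. Both reached it in 138 genes, 18.2% of the former and 8.57% of the latter, where 16.2% of all eligible genes reached it under si-circ235-2 and 7.62% under si-circ235-1. Of the 138, 3 were dropped because an siRNA library was not below both NC libraries. The same conditions turned upside down gave 126 genes that were higher under both siRNAs.

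A circular RNA can bind microRNAs and keep them from their target mRNAs, which are otherwise repressed through short matches to the microRNA seed in the 3′ UTR. The study examined circ235 as such a sponge for miR-330-5p and sequenced these libraries to look for mRNAs downstream of them. An siRNA pairs with its target RNA and directs its cleavage, and a pair of siRNAs of different sequence was used here. The 135 members are the mRNAs that were lower with each of them. In bulk libraries, a lower level in every cell and a loss in some of the cells cannot be told apart.

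The libraries held 15373992 to 19912893 counts, and every member passed edgeR's filter on low counts, with 29 counts as the lowest value of a member in any library. The keratins KRT7, KRT8 and KRT18 were the 3 of 6 epithelial markers at 5 CPM or more, whereas PPARG was the only 1 of 10 urothelial markers at that level, and 8 of those 10 were under 1 CPM. All 5 endothelial and all 5 fibroblast markers and 5 of 6 leukocyte markers were under 1 CPM. CD14 was the only leukocyte marker at 5 CPM or more, so the urothelial and leukocyte sums below rest on few genes. The summed epithelial markers ranged from 3919 to 5568 CPM in NC, from 4213 to 4621 CPM under si-circ235-1 and from 3041 to 3637 CPM under si-circ235-2. The summed urothelial markers were higher under both siRNAs without overlap, at 25.99 to 27.5 CPM in NC, 42.8 to 49.9 CPM under si-circ235-1 and 54.1 to 54.7 CPM under si-circ235-2. The leukocyte sum was 3.22 to 3.32 CPM in NC, 10.6 to 11.3 CPM under si-circ235-1 and 2.04 to 2.71 CPM under si-circ235-2. The endothelial and fibroblast sums stayed between 0.525 and 2.65 CPM in the 6 libraries. The part of these markers in the levels of the members was not tested.

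Across the 135 members, the median level was 50.9% of the NC mean under si-circ235-1 and 45.8% under si-circ235-2, where the medians over all eligible genes were 99.3% and 98.9%. By library, the median member stood at 117% and 82.7% of the NC mean in NC replicates 1 and 2. It stood at 52.8% and 47.7% in the si-circ235-1 replicates and at 49.0% and 42.2% in the si-circ235-2 replicates. The NC libraries therefore differed from each other in these genes. NC replicate 1 was higher than NC replicate 2 in 129 of 135 members (95.6%, against 46.3% of eligible genes), with a median ratio of 1.42. The si-circ235-2 libraries showed the same order in 122 members (90.4%, against 64.1% of eligible genes), and the si-circ235-1 libraries in 96 (71.1%, against 54.7%). In the median member, the highest siRNA library was at 69.3% of the lower NC library, and in 2 members it was above 90% of it.

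**Figure D1:**
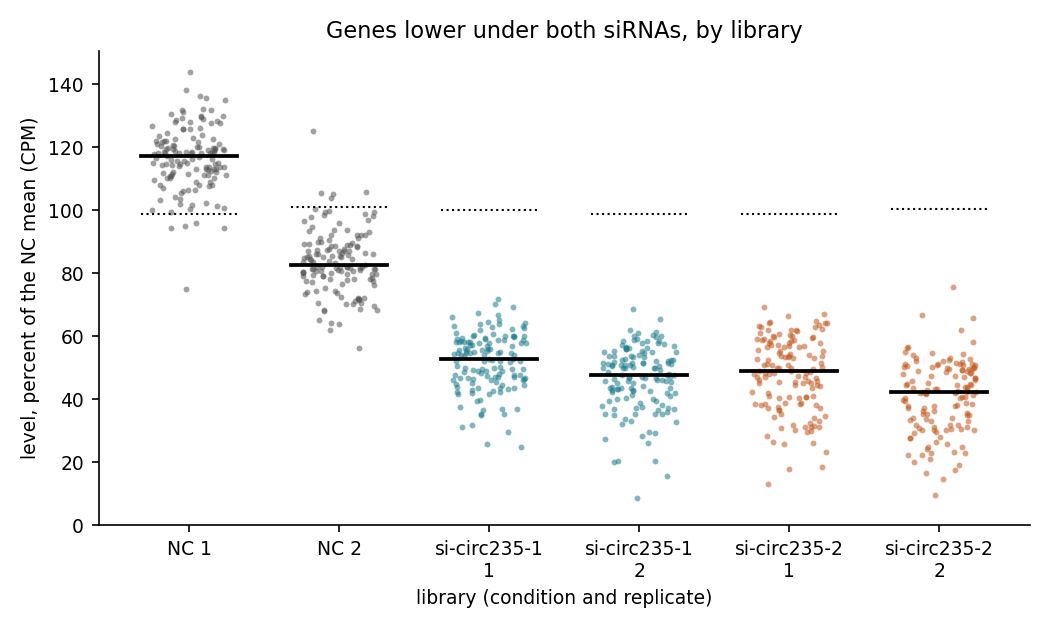
Level of each of the 135 members in each library as a percent of that gene's NC mean in CPM (points, 1 per gene, spread sideways for view). Solid lines are medians over the members and dotted lines medians over the 9960 eligible genes; the members' median is 117% in NC replicate 1 and 82.7% in NC replicate 2, and between 42.2% and 52.8% in the siRNA libraries.

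The size of the set depended on NC replicate 1. Without that library, 43 genes met the conditions and 40 of them were among the 135, and without NC replicate 2 there were 268, which held 128 of the 135. Without TMM factors 91 genes met them and 77 of these were members. When the limit was set against the lower NC library in place of the mean, 37 members remained. When each library was corrected for its own smooth dependence on the length and GC content of transcripts, 50 genes met the conditions and 27 of them were members. Under both of these changes, applied separately, 14 members stayed: ACYP1, AP4M1, C1orf35, EMP3, HES7, INPP5J, MYCBP, NEK3, NME4, PFDN6, SYP, TMEM145, TOMM40 and UPF3B.

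**Figure D2:**
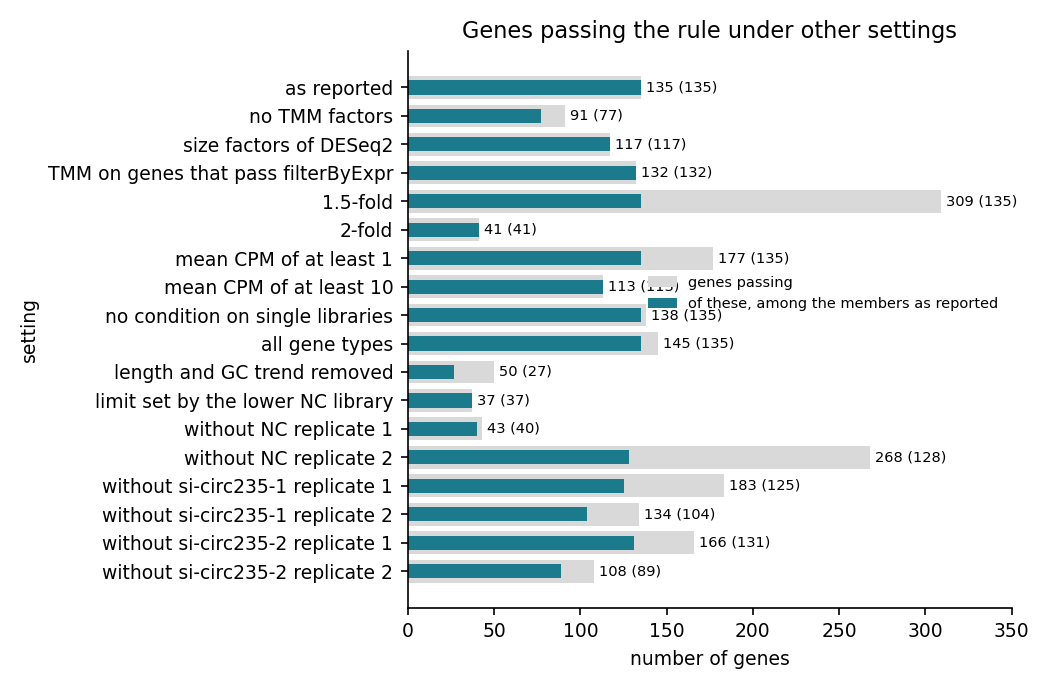
Number of genes meeting the conditions under each setting (grey bars) and how many of them are among the 135 (blue bars), with both numbers printed beside the bar. Counts range from 37 with the limit set by the lower NC library to 309 with a 1.5-fold limit.

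Values of single genes are given below in CPM, with replicate 1 before replicate 2. Members are grouped by roles that were assigned after the members were known. The other eligible genes were not sorted by role, so no background share stands beside the sizes of these groups. Ranked by the higher of its siRNA means, the smallest share of NC was that of PFDN6, a subunit of prefoldin, the complex that hands newly made actin and tubulin to the chaperonin. PFDN6 (ENSG00000204220.11, chr6:33289302-33298401, plus strand, GENCODE 29 on GRCh38) stood at 70.9 and 27.7 CPM in NC, at 15.3 and 10.1 CPM under si-circ235-1 and at 9.19 and 7.23 CPM under si-circ235-2. All 4 siRNA libraries were well below NC replicate 2, which was itself far below NC replicate 1. The means were 25.8% and 16.6% of NC, and 45.9% and 29.6% of NC replicate 2 alone. The exons of PFDN6 overlap those of RGL2 over 24.5% of their length and those of WDR46 over 7.65%, both on the opposite strand, and counts without strand information cannot separate them. RGL2 was at 68.9% and 90.7% of NC and WDR46 at 78.0% and 54.8%.

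Of the other 7 members of protein folding and turnover, PSMB10, a catalytic subunit of the immunoproteasome, had the lowest share of NC under si-circ235-2 among all members. It was at 18.8 and 10.3 CPM in NC, at 8.52 and 3.81 CPM under si-circ235-1 and at 2.59 and 1.38 CPM under si-circ235-2. PSMB10 was thus much lower under si-circ235-2 (13.7% of NC) than under si-circ235-1 (42.5%). HGH1, BTBD2, KLHL17, DNAJB2, RNF126 and PIN4 make up the rest of this group, and DNAJB2 is a co-chaperone of HSP70 and RNF126 a ubiquitin ligase. Their si-circ235-1 means ranged from 40.3% to 58.1% of NC.

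Mitochondrial proteins made up 11 members, at a median of 53.7% of NC under si-circ235-1 and 40.7% under si-circ235-2. TOMM40, the channel through which proteins enter mitochondria, was at 314 and 221 CPM in NC, at 98.4 and 94.2 CPM under si-circ235-1 and at 129 and 113 CPM under si-circ235-2. The NC and siRNA libraries were far apart for TOMM40, at 36.0% and 45.3% of NC, and it passed both changed conditions above. BCAT2, the mitochondrial aminotransferase for branched-chain amino acids, was at 188 and 127 CPM in NC against 58.4 to 71.1 CPM in the siRNA libraries, which gave 39.2% and 40.7% of NC. NME4, a mitochondrial nucleoside diphosphate kinase, was at 300.3 and 206 CPM in NC, at 126 and 102 CPM under si-circ235-1 and at 97.7 and 78.5 CPM under si-circ235-2. MRPL24, a protein of the large mitochondrial ribosomal subunit, was at 103 and 60.3 CPM in NC, at 46.4 and 41.3 CPM under si-circ235-1 and at 26.6 and 22.6 CPM under si-circ235-2. C19orf70, a subunit of the cristae-organizing MICOS complex, and SLC25A10, the dicarboxylate carrier of the inner membrane, were likewise lower under si-circ235-2 (27.3% and 24.2% of NC) than under si-circ235-1 (49.9% and 56.5%). FLAD1, which makes FAD, and COQ8B, needed for coenzyme Q, stood at more equal shares, 57.6% and 54.8% for FLAD1 and 57.0% and 53.5% for COQ8B.

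A small group was formed of 3 genes of amino acid stress and translation control. CHAC1, an enzyme that breaks down glutathione and a known target of the stress factor ATF4, was at 42.0 and 28.6 CPM in NC, at 16.8 and 14.2 CPM under si-circ235-1 and at 15.6 and 12.5 CPM under si-circ235-2. NUPR1, a small stress-induced nuclear protein, was at 21.3 and 11 CPM in NC, at 7.67 and 6.90 CPM under si-circ235-1 and at 2.12 and 2.85 CPM under si-circ235-2. EIF4EBP1, a repressor of cap-dependent translation, was at 396 and 191 CPM in NC, at 131 and 138 CPM under si-circ235-1 and at 92.0 and 72.9 CPM under si-circ235-2. All 3 had a wide gap between the NC libraries, and NUPR1 and EIF4EBP1 were lowest under si-circ235-2. In the list of 30 genes of the ATF4 response, 28 were eligible, and CHAC1 and NUPR1 were its only members. The medians of that list were 117% and 109% of NC.

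A group of 20 members held proteins of the endoplasmic reticulum, Golgi, vesicles and glycosylation, at medians of 48.0% and 45.6% of NC. MOSPD3, a membrane protein of the endoplasmic reticulum, was at 79.7 and 51.2 CPM in NC, at 25.9 and 18.5 CPM under si-circ235-1 and at 30.8 and 20.8 CPM under si-circ235-2. AP4M1, the mu subunit of the AP-4 adaptor, was at 64.0 and 42.2 CPM in NC and between 18.7 and 28.9 CPM in the siRNA libraries, and its exons overlap those of TAF6 and MCM7 over 21.4% and 8.30% of their length. SYP, the vesicle protein synaptophysin, was at 41.9 and 29.1 CPM in NC and between 11 and 16.6 CPM in the siRNA libraries. NAT14 differed more between the siRNAs, at 105 and 59.3 CPM in NC, 38.5 and 34.4 CPM under si-circ235-1 and 27.9 and 20.4 CPM under si-circ235-2. ALG3, which adds the first mannose in the lumen to the N-glycan precursor, was at 48.2% and 48.6% of NC, and MPDU1, which the cell needs to use dolichol-linked mannose, at 57.9% and 51.3%. The palmitoyltransferases ZDHHC12 and ZDHHC8 were at 54.9% and 40.1% and at 47.9% and 56.7% of NC. VAMP2, a vesicle SNARE, was at 39.6% and 54.6%, and the GTPase RAB26 at 58.2% and 32.3%.

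The 17 members of the cytoskeleton, nuclear envelope and junctions were at medians of 48.3% and 45.6% of NC. EMP3, a tetraspan membrane protein, was at 440 and 259 CPM in NC, at 145 and 147 CPM under si-circ235-1 and at 105 and 80.0 CPM under si-circ235-2. KIF12, a kinesin, went the other way between the siRNAs, at 33.9 and 23.0 CPM in NC, 7.11 and 5.74 CPM under si-circ235-1 and 12.9 and 10.9 CPM under si-circ235-2. CAPNS1, the small subunit of calpain, was at 1413 and 1048 CPM in NC and between 531 and 696 CPM in the siRNA libraries. MYL9, a regulatory light chain of myosin, was at 969 and 535 CPM in NC, at 451 and 395 CPM under si-circ235-1 and at 279 and 219 CPM under si-circ235-2, so that NC replicate 2 lay closer to si-circ235-1 than to NC replicate 1. The junction proteins JUP and CLDN4 (plakoglobin and claudin 4) stood at 57.7% and 53.5% and at 56.6% and 52.7% of NC, and the inner nuclear membrane protein emerin (EMD) at 48.3% and 42.0%.

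Among the 16 signalling members, at medians of 50.0% and 47.7% of NC, INPP5J came first when ranked by the higher of its siRNA shares. This phosphatase of inositol lipids was at 15.1 and 13.9 CPM in NC, at 5.28 and 6.62 CPM under si-circ235-1 and at 5.89 and 4.80 CPM under si-circ235-2, with the NC libraries close together. LY6K, a surface protein of the testis found in several cancers, was at 104 and 58.1 CPM in NC and between 32.2 and 38.9 CPM in the siRNA libraries. RAPGEF3, which activates RAP GTPases when cAMP binds it, was at 277 and 223 CPM in NC, at 130 and 125 CPM under si-circ235-1 and at 141 and 136 CPM under si-circ235-2. For RAPGEF3 the replicates of each condition were close, and the shares of NC were 51.0% and 55.5%. Its exons overlap those of SLC48A1 over 0.687% of their length. The ligand VEGFB was at 44.9% and 45.3% of NC, the receptors KISS1R and IL11RA were at 43.7% and 45.3% and at 53.6% and 49.1%, and the semaphorin SEMA6B was at 45.1% and 43.0%.

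The 17 transcription factors and cofactors were at medians of 54.5% and 47.4% of NC. HES7, a repressor of the HES family known from the segmentation clock, was at 19.8 and 10.7 CPM in NC, at 5.35 and 6.18 CPM under si-circ235-1 and at 4.77 and 3.95 CPM under si-circ235-2. CITED4, a partner of the coactivators CBP and p300, was at 1585 and 897 CPM in NC, at 585 and 626 CPM under si-circ235-1 and at 509 and 378 CPM under si-circ235-2. PAX2, a factor of urogenital development, had NC libraries that were nearly equal (74.2 and 70.9 CPM) and was at 23.1 and 14.8 CPM under si-circ235-1 and at 40.2 and 37.8 CPM under si-circ235-2. MAZ, a zinc finger factor that binds GC-rich promoters, was at 21.6 and 16.2 CPM in NC and at 10 and 7.89 CPM under si-circ235-2, but at 8.17 and 1.66 CPM under si-circ235-1. That 4.93-fold gap between replicates was the widest of any member within si-circ235-1.

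**Figure D3:**
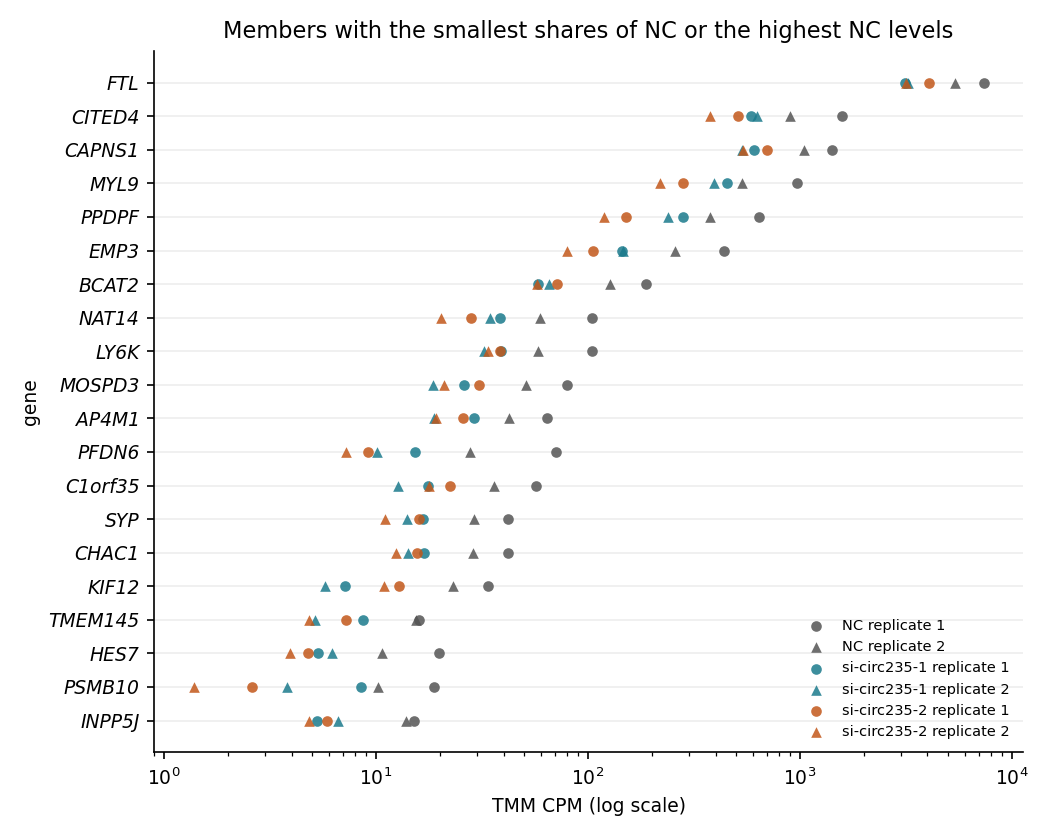
TMM CPM (log axis) of the 15 members with the smallest share of NC and the 5 with the highest NC level, ordered by NC mean; circles are replicate 1 and triangles replicate 2. Grey NC symbols lie to the right of all siRNA symbols in every row because the rule requires it. For PFDN6, CITED4 and MYL9 the NC replicates are far apart.

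Smaller groups covered RNA processing and the cell cycle. The 6 members of RNA processing were at medians of 50.3% and 40.3% of NC and included SF3A2 of the U2 small nuclear ribonucleoprotein, the tRNA deaminase subunit ADAT3, the tRNA thiolation factor CTU2 and UPF3B of nonsense-mediated decay. SF3A2 was at 297 and 154 CPM in NC, at 134 and 99.5 CPM under si-circ235-1 and at 69.9 and 50.5 CPM under si-circ235-2. UPF3B was at 31.0 and 30.7 CPM in NC, at 13.2 and 16.5 CPM under si-circ235-1 and at 8.01 and 15.8 CPM under si-circ235-2. The NC replicates agreed for UPF3B and not for SF3A2. The 7 members of cell cycle and genome stability were at medians of 54.9% and 54.3%: AURKB, the chromosomal passenger kinase, was at 162 and 133 CPM in NC and between 73.8 and 93.6 CPM in the siRNA libraries. PKMYT1, an inhibitory kinase of CDK1, was at 56.8% and 54.1% of NC, RAD9A of the checkpoint clamp at 52.4% and 54.3% and FAAP100 of the Fanconi anemia core complex at 58.8% and 47.2%.

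Of the remaining members, FTL had the highest level of all. FTL, the light chain of the iron store ferritin, was at 7361 and 5388 CPM in NC, at 3125 and 3240 CPM under si-circ235-1 and at 4087 and 3166 CPM under si-circ235-2, and per kb of its longest transcript it was at 7260 CPM in NC. FTL has many processed pseudogenes to which a share of its reads could be assigned. BAX, a pore-forming protein of apoptosis, was at 50.9% and 55.2% of NC and the peroxidase PRDX2 at 48.9% and 45.0%. The 11 members of lipid, nucleotide and other small-molecule metabolism were at medians of 52.2% and 51.0% of NC and included PNPLA2, the triglyceride lipase of lipid droplets, at 37.8% and 45.7%, and FNTB, the beta subunit of farnesyltransferase, at 48.9% and 51.9%. No role was assigned to 16 members. Of these, PPDPF was at 640 and 379 CPM in NC, at 280 and 239 CPM under si-circ235-1 and at 151 and 119 CPM under si-circ235-2, C1orf35 at 32.5% and 42.9% of NC, and TMEM145 at 44.2% and 38.2% with NC libraries of 15.9 and 15.4 CPM. UGT2B7 and TCEAL3 belong to families of similar sequence, so that their counts are uncertain.

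The limit itself cut through a continuum. FAAP100 (58.8%), DNAL4 (58.8%) and TINAG (58.5%) were the members with the highest siRNA share of NC, and TMEM25 (58.9%), TOE1 (58.9%) and TRAPPC6A (59.0%) were the genes just outside that met every other condition. The DNAL4 libraries were at 25.4 and 21.3 CPM in NC, 11.5 and 10.6 CPM under si-circ235-1 and 15.5 and 11.9 CPM under si-circ235-2. The TMEM25 libraries were at 12 and 11 CPM in NC, 5.21 and 4.41 CPM under si-circ235-1 and 6.60 and 6.94 CPM under si-circ235-2.

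The direct comparison of the siRNAs asks whether a member was equally low under both. It is not independent of the rule, which used the same 4 siRNA libraries and held both shares at or under 58.8%, so that members were limited in how far they could differ. In edgeR's quasi-likelihood test over 14415 genes, with Benjamini-Hochberg adjustment and a threshold of 0.05, 4 members were higher under si-circ235-2 than under si-circ235-1, 18 were lower and 113 were not called. Over all genes tested, 21.1% were called higher and 18.6% lower, and over the eligible genes 23.6% and 22.5%. The corresponding shares of the members were 2.96% and 13.3%, and nothing is read from their being lower, since the rule favoured genes with like values under the siRNAs. The median log2 fold change (si-circ235-2 over si-circ235-1) was -0.12 over the members and -0.00 over the eligible genes.

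ARHGDIA, PAX2, KIF12 and GIPC1 were the members called higher. ARHGDIA was at 326 and 304 CPM in NC, at 112 and 48.9 CPM under si-circ235-1 and at 202 and 162 CPM under si-circ235-2, a log2 fold change of 1.19 ± 0.31 (SE, edgeR adjusted p = 0.012). PAX2 had a log2 fold change of 1.05 ± 0.23 (adjusted p = 0.0047) and KIF12 one of 0.89 ± 0.27 (adjusted p = 0.023). GIPC1, an adaptor between receptors and myosin VI, was at 155 and 104 CPM in NC, at 38.2 and 41.7 CPM under si-circ235-1 and at 74.1 and 65.5 CPM under si-circ235-2, a log2 fold change of 0.80 ± 0.22 (adjusted p = 0.014). In all 4 genes the siRNA libraries of one condition did not overlap those of the other. Single libraries decided these values. ARHGDIA was at 1.89 without si-circ235-1 replicate 1 and at 0.71 (adjusted p = 0.077) without si-circ235-1 replicate 2. Without the latter, PAX2 (0.76, adjusted p = 0.053), KIF12 (0.75, adjusted p = 0.15) and GIPC1 (0.88, adjusted p = 0.065) lost their calls in edgeR too. KIF12 and GIPC1 also lost them without si-circ235-1 replicate 1 (adjusted p = 0.052 and 0.085), and KIF12 without si-circ235-2 replicate 1 (adjusted p = 0.058).

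Among the 18 members called lower under si-circ235-2, PSMB10 and NUPR1 had the largest differences, with log2 fold changes of -1.63 ± 0.46 (edgeR adjusted p = 0.018) and -1.54 ± 0.35 (adjusted p = 0.0064). NT5C, a nucleotidase for deoxyribonucleotides, was at 23.1 and 12.6 CPM in NC, at 11.4 and 8.88 CPM under si-circ235-1 and at 5.36 and 2.95 CPM under si-circ235-2, and fell by 1.29 on the log2 scale (adjusted p = 0.017). ZNF358, a zinc finger protein, was at 32.6 and 16.8 CPM in NC, at 11.5 and 13.8 CPM under si-circ235-1 and at 5.77 and 4.76 CPM under si-circ235-2 (log2 fold change -1.27 ± 0.33, adjusted p = 0.011). SLC25A10 was at 31.2 and 18.5 CPM in NC, at 11.1 and 17.1 CPM under si-circ235-1 and at 6.48 and 5.56 CPM under si-circ235-2 (log2 fold change -1.23 ± 0.32, adjusted p = 0.012). Of these 5 genes, NUPR1 kept its call in edgeR whichever library was left out. PSMB10 was at -0.97 (adjusted p = 0.16) without si-circ235-1 replicate 1, and NT5C lost its call without either si-circ235-1 library or si-circ235-2 replicate 2 (adjusted p from 0.053 to 0.091). ZNF358 (adjusted p = 0.080) and SLC25A10 (adjusted p = 0.12) lost theirs without si-circ235-1 replicate 2. After the correction for length and GC content PSMB10, NT5C, ZNF358 and SLC25A10 were no longer called. The other 13 were MRPL24, TMUB1, MYL6B, RAB26, ADAT3, SF3A2, C19orf70, CTXN1, NUCB1, ZNF580, MYL9, PPDPF and PIN4. The split between the directions depended on the scaling: without TMM factors 18 members were called higher and 6 lower, and after the correction for length and GC content 35 were called higher and 6 lower. Leaving out si-circ235-1 replicate 2 left 3 calls, leaving out si-circ235-1 replicate 1 left 8, and leaving out si-circ235-2 replicate 2 left 11.

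**Figure D4:**
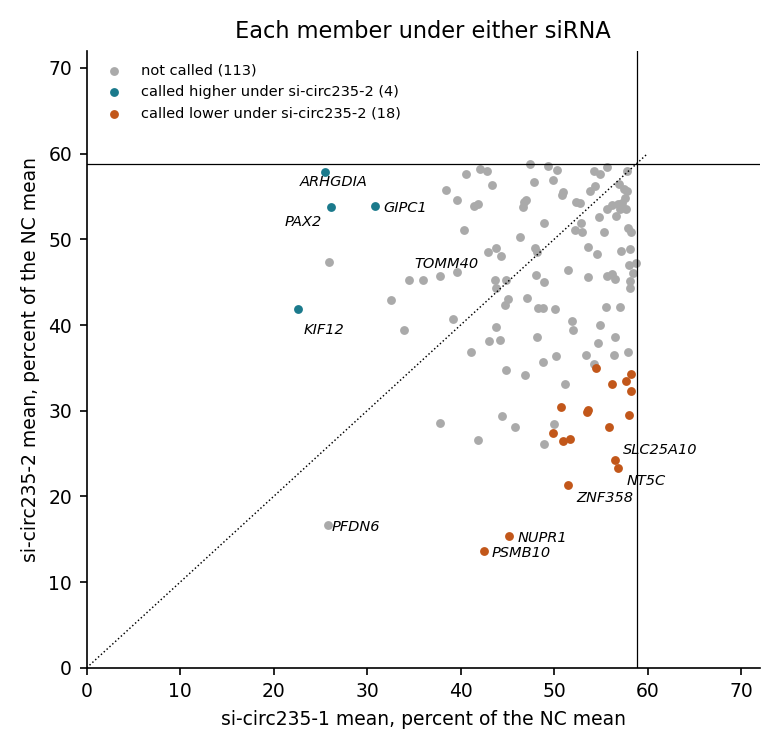
Mean of each member under si-circ235-1 (horizontal) and si-circ235-2 (vertical) as a percent of its NC mean; solid lines mark the limit of 58.8% and the dotted line equal shares. Colours show edgeR's calls between the siRNAs: 4 members higher and 18 lower under si-circ235-2, and 113 not called.

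The lists of pathways and complexes given here, which were drawn up with earlier results known, held 0 to 2 members each. For comparison, 1.36% of all eligible genes were members, and nothing is read from such small counts in lists of this size. The lists for cytosolic and mitochondrial aminoacyl-tRNA synthetases (36 eligible genes), lysosomal acidification (31), cholesterol synthesis (28), microRNA processing (27), glycolysis and lactate transport (26) and RAS to ERK signalling (26) held 0 members. The same was true of ribosome biogenesis (36), endoplasmic reticulum folding (32), hypoxia genes outside glycolysis (21), TGF-beta family receptors (20), interferon-stimulated genes (19), copines (11) and small phosphatases (10). In the mitochondrial ribosome 1 of 43 eligible genes was a member (MRPL24), with list medians of 102% and 61.0% of NC. In this list 21 genes reached the limit with si-circ235-2 against 2 with si-circ235-1. The limit was also reached more often with si-circ235-2 in general, by 16.2% of all eligible genes against 7.62% with si-circ235-1. The part of this general difference in the gap of the list was not tested. The outer membrane translocase had TOMM40 as 1 of 14, with medians of 106% and 82.7%, and the 22 eligible genes of the inner membrane translocases had none, with medians of 108% and 65.4%. The spliceosome list had SF3A2 as 1 of 31 and the mitosis list AURKB as 1 of 31. The cAMP and RAP list had RAPGEF3 as 1 of 21, the N-glycan list ALG3 as 1 of 30 and the list around glucose-6-phosphate G6PC3 as 1 of 11.

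Of 14 genes that the study names and that were looked up here, TOMM40, RAPGEF3 and G6PC3 were members. G6PC3, the ubiquitous glucose-6-phosphatase, was at 106 and 67.7 CPM in NC, at 43.8 and 33.1 CPM under si-circ235-1 and at 46.6 and 36.8 CPM under si-circ235-2. PAK4, CTDSP1 and ENG were lower in every siRNA library than in either NC library but missed the limit under si-circ235-2. PAK4, a p21-activated kinase, was at 117 and 107 CPM in NC, at 38.9 and 25.8 CPM under si-circ235-1 and at 72.8 and 59.6 CPM under si-circ235-2, which put it at 28.9% and 59.1% of NC. CTDSP1, a small phosphatase, was at 34.7% and 62.1%, and ENG, the TGF-beta coreceptor endoglin, at 42.4% and 68.5%. CPNE1, a calcium-dependent lipid-binding protein, was at 82.6% and 33.6%, so it missed the limit under si-circ235-1. The glycolysis genes SLC2A1, HK2 and LDHA, the kinase gene AKT1 and the Elongator gene ELP3 were outside the set too, at 97.2% to 120% of NC under si-circ235-1 and at 91.4% to 163% under si-circ235-2. SLC16A3, the lactate exporter MCT4, was at 436 and 313 CPM in NC, at 378 and 277 CPM under si-circ235-1 and at 228 and 193 CPM under si-circ235-2, and its si-circ235-1 libraries overlapped those of NC. The study started from the sequencing of these libraries, tested the most changed genes by qRT-PCR and kept those that fell after circ235 interference. From these it chose MCT4 as a target after site prediction, 3′ UTR reporter assays and western blots. Rescue experiments with an inhibitor of the microRNA and with MCT4 knockdown followed. The read counts given here come from that first step, so they are not a separate check of the choice. They are a different measure from the later assays. CCNY, the host gene of circ235, was at 114% and 93.9% of NC.

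The members shared a transcript type that the rule did not use. Their longest transcripts had a median GC content of 61.7% and a median length of 2153 bases, where the eligible genes had 48.0% and 3792 bases. GC content was above the eligible median in 123 of 135 members and above the upper quartile of 56.5% in 102, and length was below the eligible median in 118. Both held in 109 members (80.7%), against 30.3% of eligible genes. The members had a median of 5 exons against 9, a gene span of 9261 against 33397 bases and a 3′ UTR of 522 against 1416 bases. Their NC level, which the rule did use, was at a median of 51.1 CPM against 34.5. Divided by the length of these shorter transcripts, it was at a median of 21.7 CPM per kb against 9.14.

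The differences between libraries of 1 condition followed the same transcript features over the 9960 eligible genes. The ratio of NC replicate 1 to NC replicate 2 had a Spearman correlation of 0.44 with GC content and of -0.41 with length, and the ratio of the si-circ235-2 replicates had 0.57 and -0.50. For the si-circ235-1 replicates they were 0.45 and 0.03. The ratio of the si-circ235-1 mean to NC had -0.32 with GC content and 0.01 with length, and that of si-circ235-2 to NC had -0.26 and 0.54. These are correlations across genes of the same libraries and are given as a description. After the correction of each library for both features, the members' medians moved to 58.2% of NC under si-circ235-1 and 65.2% under si-circ235-2, and the part of GC content and length in the members' lower levels was not tested.

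**Figure D5:**
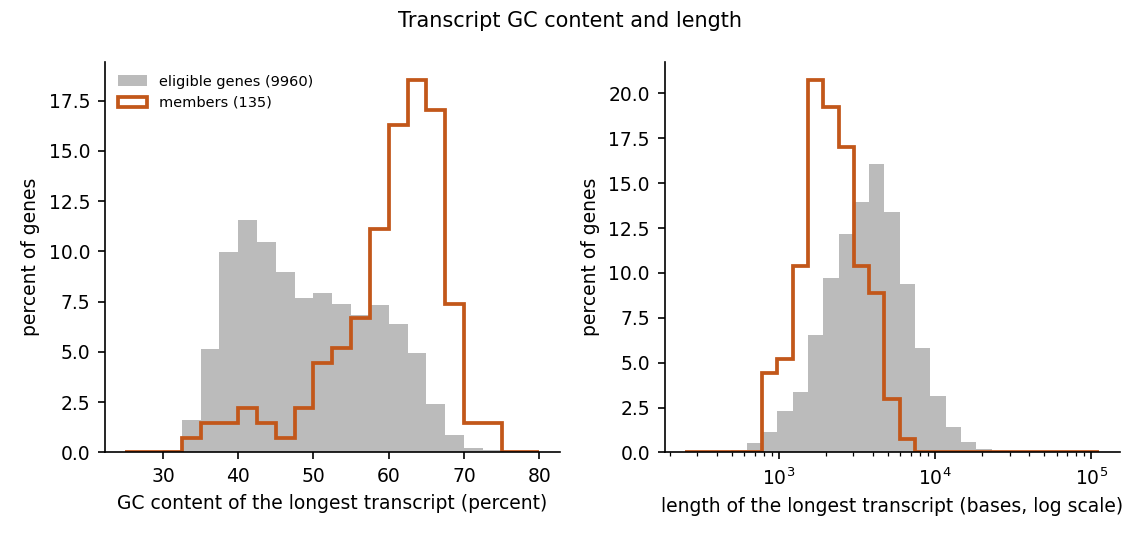
GC content (left) and length on a log axis (right) of the longest transcript, as the percent of genes in each bin, for the 135 members (orange outline) and the 9960 eligible genes (grey). The members are centred at 61.7% GC and 2153 bases and the eligible genes at 48.0% and 3792 bases.

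A minority of 12 members had a GC content below the eligible median. These were EFCAB7, RMI1, IRAK1BP1, PIN4, UGT2B7, NEK3, UPF3B, TINAG, MYCBP, MTERF2, DHRS1 and ZNF133, from 32.7% to 47.5% GC. Their median ratio of NC replicate 1 to replicate 2 was 1.08. Of the 12, 8 stayed after the correction, and 3 (NEK3, UPF3B and MYCBP) stayed with the limit set by the lower NC library. The correction uses GC content, by which these 12 were picked, so nothing is read from the number it kept. NEK3, a kinase related to NIMA, was at 14.6 and 16.4 CPM in NC, at 8.38 and 8 CPM under si-circ235-1 and at 8.48 and 8.37 CPM under si-circ235-2. MYCBP, a protein that binds MYC, was at 21.5 and 21.7 CPM in NC, at 12.5 and 11.9 CPM under si-circ235-1 and at 9.66 and 9.99 CPM under si-circ235-2. For NEK3 and MYCBP the replicates of each condition were close to each other, and the siRNA libraries lay below NC, as the rule requires.

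By position, 35 members (25.9%) were on chromosome 19, where 7.22% of the eligible genes lie, and 16 were on chromosome 17 and 11 on chromosome 16. The eligible genes of chromosome 19 had a median GC content of 59.3% and a median length of 3079 bases, and its members 63.9% and 2092 bases. There were 14 pairs of neighbouring members within 100 kb of each other, such as BAX (chr19:48954815-48961798) and FTL (chr19:48965301-48966878), 3503 bases apart on the same strand. Such pairs were not counted among all eligible genes. HES7, VAMP2 and AURKB followed each other, all on the minus strand, at chr17:8120590-8210600. ZNF580 and CCDC106 overlap by 122 exonic bases on the same strand, and both overlap ZNF581, so their counts are not independent.

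Exons of 71 members overlap another annotated gene, on the opposite strand in 56. Overlaps were not counted over all eligible genes, so no background share is given. In 37 members the overlapping gene was itself at 5 CPM or more, and in 13 such an overlap covered at least 10% of the member's exons. Among these were ADAT3 (35.4%, with SCAMP4), MEA1 (39.6%, with PPP2R5D), PKMYT1 (24.5%, with PAQR4), NME4 (15.6%, with DECR2), C19orf70 (15.8%, with HSD11B1L) and SF3A2 (12.7%, with PLEKHJ1). The 45 partner genes were at medians of 89.2% and 62.9% of NC, and 2 of them were members, namely ZNF580 and CCDC106.

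The miR-330-5p match was looked up because the study puts this microRNA between circ235 and its targets. The mature sequence (RefSeq, GRCh38.p14, chr19:45639049-45639070, minus strand) is shown with its seed, bases 2 to 8, in capitals.
miR-330-5p: uCUCUGGGccugugucuuaggc
The complement of the seed, CCCAGAG, was present in the longest annotated 3′ UTR of 26 of 135 members (19.3%, exact 95% binomial interval 13.0% to 26.9% if members were independent draws) and of 20.9% of 9937 eligible genes with a UTR. Extended by the A that follows it in the 8-nucleotide form, CCCAGAGA, it was in 4.44% of members and 6.62% of eligible genes, and the 6-nucleotide form CCAGAG was in 35.6% and 44.4%. Per kb of UTR the members held 0.361 of the 7-nucleotide words against 0.136 in the eligible genes. The median GC content of the UTRs was 57.7% in members and 42.6% in eligible genes. The 26 members with the word were at medians of 51.5% and 51.3% of NC and the 109 without it at 50.7% and 45.3%.

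PFDN6 and ZDHHC8 had 4 such words each in their longest annotated 3′ UTR, more than any other member. Whether T24 cells use these UTRs was not tested. The windows of PFDN6, first in the ranking above, and of RAPGEF3, a gene the study names, are shown from GENCODE 29 transcripts with the matched bases in capitals.
PFDN6 chr6:33297397-33297425: agccccttctcCCCAGAGctgaacccaca
PFDN6 chr6:33297553-33297581: gactataccagCCCAGAGAattagtcttt
PFDN6 chr6:33298054-33298082: ccctccccaatCCCAGAGtcagaggagct
PFDN6 chr6:33298373-33298401: agatgtagggaCCCAGAGAcaagagaaaa
RAPGEF3 chr12:47736980-47737008: ttccaggccagCCCAGAGtgggcgtggca
RAPGEF3 chr12:47735432-47735460: gccaggccactCCCAGAGgacaggaggcc
The PFDN6 words lie at positions 528, 684, 1185 and 1504 of a 1521-base UTR on the plus strand. Those of RAPGEF3 lie at positions 570 and 2118 of a 3200-base UTR on the minus strand, and TOMM40 and G6PC3 had 0 such words. Of the named genes outside the set, PAK4 had 4, ENG 3, CTDSP1 1 and CPNE1 1. SLC2A1 and ELP3, which were not lower under both siRNAs, had 1 each, in the 8-nucleotide form. SLC16A3, HK2, LDHA, AKT1 and CCNY had 0. The study predicted binding sites with ENCORI and RNA22, which was not done here.

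Promoters from 250 bases before to 50 bases after the transcript start were found in RefSeq for 108 members and 8050 eligible genes (GRCh38.p14). Their median GC content was 67.7% in members and 66.0% in eligible genes, so the promoters were more alike in GC content than the transcripts. On either strand, the GC box GGGCGG was in 80.6% of member promoters and 73.7% of eligible ones, CCAAT in 37.0% and 36.8%, the E-box CACGTG in 11.1% and 10.6%, the ACGTG core of hypoxia response elements (which the E-box holds as well) in 30.6% and 27.4%, and TATAAA in 5.56% and 4.55%. The ETS word CCGGAAG was in 14.8% and 21.5%, the NRF1 core GCATGCGC in 3.70% and 6.04%, the YY1 word AAGATGG in 8.33% and 8.27% and the cAMP response element TGACGTCA in 2.78% and 3.602%. The TTGCATCA word of amino acid response elements was in 1 member promoter, that of CHAC1, and in 29 eligible promoters (0.360%). It is shown in capitals as a window on the plus strand, with the word starting 209 bases before the transcript start.
CHAC1 chr15:40953252-40953280: tcccctgccgTTGCATCActcctgccagg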

How the data were processed

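The authors enriched mRNA of T24 cells with oligo dT beads, sequenced it without strand information and deposited raw read counts per gene as whole numbers. The submitters' notes name FastQC, cutadapt, STAR and hg38; tool versions, the read counter and the gene annotation were not given in the sources used here. Conditions came from the sample labels. GENCODE 29 (GRCh38) supplied symbols, coordinates, transcript sequences and UTRs and matched 99.5% of identifiers. The members and all gene lists were chosen with earlier results of these data known, and the roles after the members were known.

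The tests used edgeR 4.0.16 in R 4.3.3 (TMM, filterByExpr, quasi-likelihood test over all 3 conditions, Benjamini-Hochberg adjustment, and, for the correction for length and GC content, log2 CPM with a prior count of 2 and splines of 5 degrees of freedom). DESeq2 1.42.0 was an alternative. On simulated counts for 14415 genes with 200 changed, the comparison of the siRNAs recovered 22.6% of changes of 1 on the log2 scale and 85.6% of changes of 2, with 12.5% and 7.71% of calls false. In the data far more genes were called, 21.1% higher and 18.6% lower. The simulated counts also held no trends with GC content or length, so these rates may not hold for the data. P-values measure the spread between 2 replicates per condition. The binomial interval treats the members as independent draws, although they were chosen by rule, and nothing is read from it. Genes were named by rule: the 15 smallest shares of NC, the 5 highest NC levels, up to 5 calls in each direction between the siRNAs, 3 genes on each side of the limit, members of the lists and a list of genes the study names; others were named by role. Some genes named by the study are not reported here.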

Additional observations from a re-analysis of the deposited data

How the results depend on the processing

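The number of genes lower under both siRNAs (135) was 309 with a 1.5-fold and 41 with a 2-fold limit, 50 with length and GC trends removed and 37 with the limit set by the lower NC library, which was chosen after the data had been seen. Leaving out 1 library at a time gave 43 to 268 genes, lowest without NC replicate 1 and highest without NC replicate 2. Other scalings, CPM minimums and gene types gave 91 to 177. The total of members called between the siRNAs (22) was 41 with the trend removed and 3 to 31 with 1 library left out. Calls higher under si-circ235-2 (4) were 18 without TMM factors, 35 with the trend removed and 0 to 4 with 1 library left out. Calls lower (18) were 6 without TMM factors, 6 with the trend removed and 3 to 27 with 1 library left out. With the trend removed the log2 fold change changed sign in TMUB1 (0.093), ADAT3 (0.23), C19orf70 (0.11), CTXN1 (0.51) and PPDPF (0.21). Of these 5 genes, CTXN1 was then called higher under si-circ235-2 (edgeR adjusted p = 0.015) and the others were not called. Among the remaining called members 10 lost the call, and the cause was not tested. DESeq2 gave 28 calls and no filter on low counts 31.

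The labels pair the replicates only by a number. Deviations from the condition means correlated at -0.09 (NC and si-circ235-1), 0.15 (NC and si-circ235-2) and 0.14 (both siRNAs) across replicates of the same number. The ratio of replicate 1 to replicate 2 had Spearman correlations with GC content of 0.44 in NC, 0.45 under si-circ235-1 and 0.57 under si-circ235-2. Whether replicates of the same number share a batch was not tested. With the replicate block, 4 members were called higher and 25 lower, 29 in all, and all 22 calls were among them.

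The share of members with the miR-330-5p word was 4.44% for 8 nucleotides and 35.6% for 6, since these are other words. In the 3′ UTR of the transcript with the longest coding sequence, the 7-nucleotide word was in 17.8% of members and 17.7% of eligible genes. The median length was 3179 bases over the union of exons, where the eligible median was 5281. Depth limits the least abundant members (29 counts), and 2 libraries per condition limit the rest.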
